A study of Homo sapiens with 12 samples.

Results

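A group of 50 genes lay near the bottom of the signal range in untreated L428 and L1236 cells and had mean log2 signals of at least 6 in both lines after 5-Aza-dC. Both are established lines of classical Hodgkin lymphoma. The Hodgkin and Reed-Sternberg cells of this tumour descend from B cells but no longer express most B-cell genes. RNA was hybridised to 12 expression arrays, 3 in each of 4 groups: each line untreated, and each line given 5-Aza-dC at 1 µM, kept in it for 24 h and then cultured for 72 h in medium without the drug. The labels name no vehicle for the untreated cells and no genetic change in either line, and they do not say whether the 3 arrays of a group came from separate cultures, so the p-values below reflect array-to-array spread that may be technical.

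The genes were chosen from the measured values. Each gene with a single symbol was represented by 1 probe set, the one whose mean over the 12 arrays was greatest, which gave 19775 genes. A gene was kept when its mean log2 signal was below 4 in both untreated groups and at least 6 in both treated groups. Symbols that start with MAGE, SSX, CTAG, OAS or IFI were left out. Of the 8765 genes below 4 in both untreated groups, 103 (1.18%) reached 6 in treated L428 and 161 (1.84%) reached 6 in treated L1236. Both lines shared 56 of them, which is 54.4% of the genes on in L428 and 34.8% of those on in L1236. The 6 left out by name were CTAG2, IFI27, MAGEA1, MAGEA12, MAGEA4 and MAGEA6. A further 47 genes passed in L428 only and 105 in L1236 only. Because these values chose the genes, the levels and rises in each line are given as a description.

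5-Aza-dC, also called decitabine, is a cytidine analogue that is built into DNA and traps the maintenance DNA methyltransferase, so that CpG methylation is lost as cells divide. Promoters rich in CpG are usually free of methylation in healthy cells. A known exception is a class of germ-line genes whose promoters are methylated in somatic tissue and active in the testis, and their release is a common response of tumour cells to this drug. DNA methylation was not analysed here, and the values below are RNA signals alone. The signal of a bulk sample is a sum over cells, and more cells expressing a gene cannot be told apart from more RNA per cell.

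By general knowledge of their proteins, 20 of the 50 genes belong to the germ line and testis. Another 11 encode membrane, metabolic or cytoskeletal proteins of many tissues, 7 belong to immune and interferon responses, 4 are best known from the nervous system, sense organs or kidney, and 2 are H2B histone genes. No role was assigned to the remaining 6. This grouping was made by hand after the names were known and is used only to order the results.

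**Figure D1:**
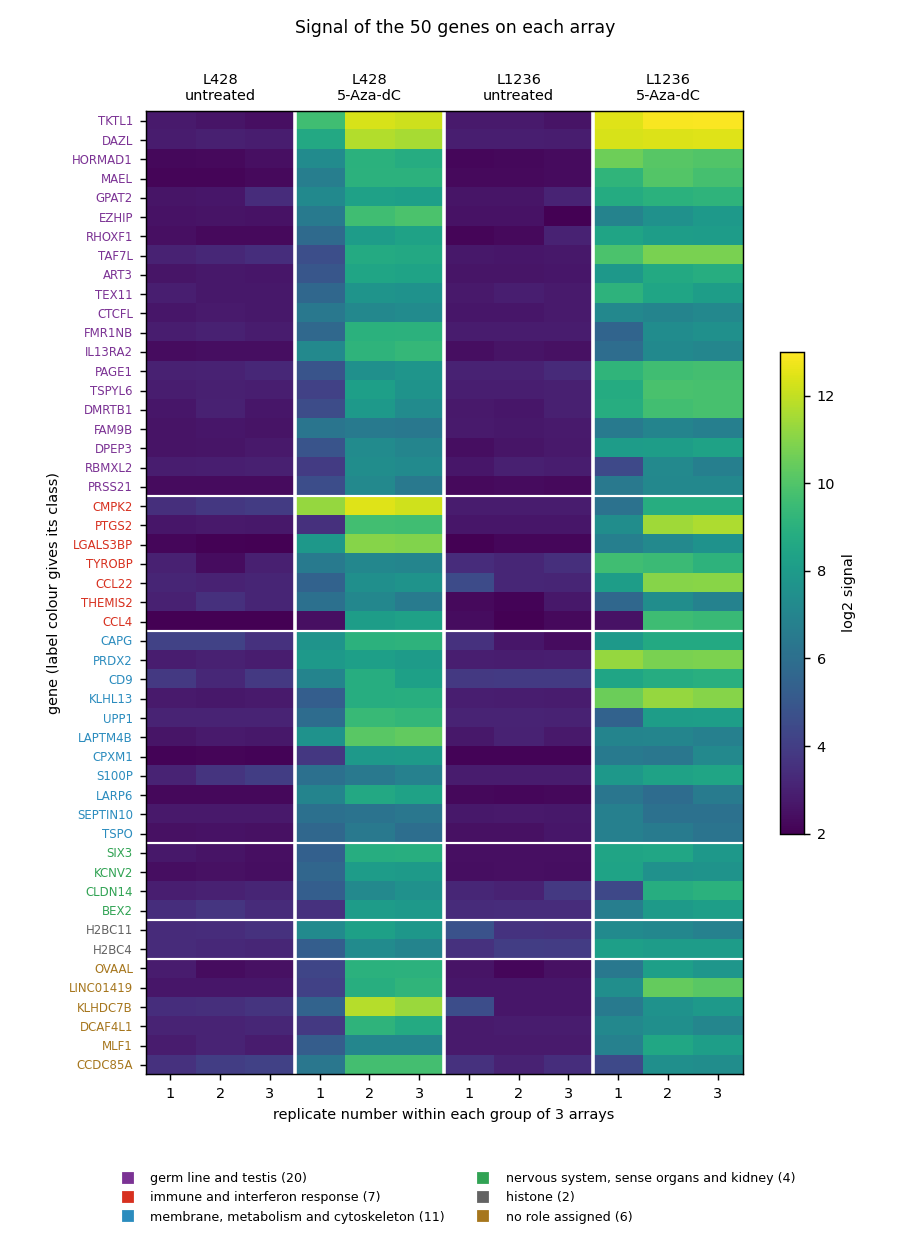
Log2 signal (colour scale) of each of the 50 genes (rows, label colour gives the class) on each of the 12 arrays (columns, 3 replicates in each group). The untreated columns are dark in both lines, and the column of treated L428 replicate 1 is darker than those of the other treated L428 arrays for all 50 genes.

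The arrays of a group did not behave alike. Over the 50 genes, the median log2 signal was 2.81, 2.77 and 2.76 on the untreated L428 arrays and 5.71, 8.29 and 8.28 on the treated ones. In L1236 it was 2.73, 2.70 and 2.79 without the drug and 7.34, 8.27 and 8.15 with it. All 50 genes had their lowest treated L428 value on replicate 1, and 28 of them were below 6 there. In treated L1236, 34 genes were lowest on replicate 1, and 8 were below 6 on it. The median over all 19775 genes on the same treated arrays was 4.78, 4.95 and 4.99 in L428 and 5.18, 5.22 and 5.17 in L1236. What set these arrays apart was not tested. Results that rest on them are given with and without the 4 arrays numbered 1, and without those arrays 75 genes met the rule, 49 of the 50 among them.

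**Figure D2:**
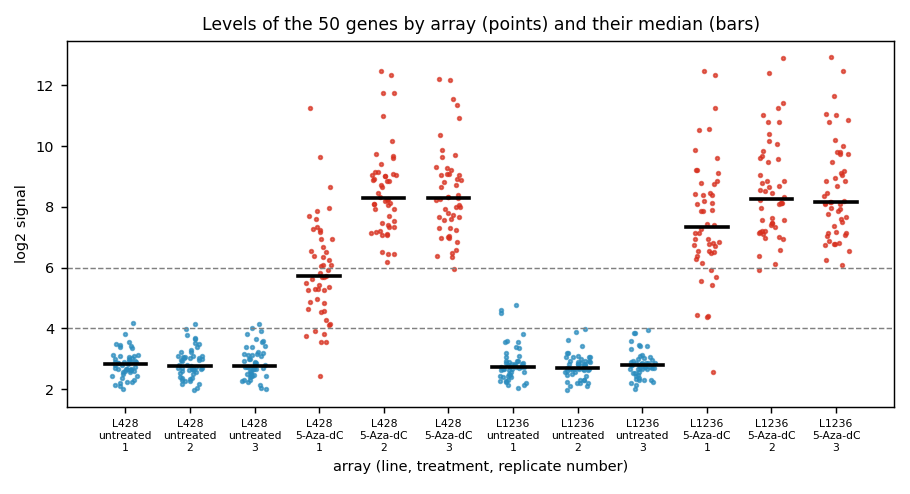
Each point is the log2 signal of 1 of the 50 genes on 1 array, and each bar is the median over the 50 genes. Dashed lines mark the thresholds of 4 and 6. The medians of the untreated arrays lie between 2.70 and 2.81, and that of treated L428 replicate 1 is 5.71 against 8.29 and 8.28 on the other treated L428 arrays.

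Correlations over all genes ran from 0.981 to 0.998 within a group, from 0.959 to 0.989 between treatments of a line and from 0.901 to 0.925 between the lines. The source name of untreated L1236 replicate 1 describes treated L428 cells, while its description says untreated L1236. Its values correlated most with untreated L1236 replicate 3 (0.995), and at most 0.916 with a treated L428 array. Leaving it out gave the same 50 genes. The source name of treated L428 replicate 1 gives the agent as Aza where the other treated arrays have 5-Aza-dC, while its description names 5-Aza-dC, and it was grouped by that description. Hodgkin markers were present in both lines, with 6 of 6 above 6 in L428 and 5 of 6 in L1236, where TRAF1 read 2.10 without the drug. B-cell markers were mixed. MS4A1 and CD79A had group means below 4 throughout and CD79B of 4.13 to 5.10, while PAX5 went from 11.8 to 12.6 in L1236 and from 5.32 to 6.54 in L428, and BLK from 5.43 to 4.28 in L428. Signals of 2 to 3 are near the floor of this table, and where the processing placed that floor sets the size of any rise measured from it.

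Every treated array lay above every untreated array for 49 of the 50 genes in L428 and for 50 of 50 in L1236. Over all genes the same held for 9.21% in L428 and 15.8% in L1236. The limma fit called 41 of the 50 higher in L428 and 46 higher in L1236, with 40 called in both, beside 3.32% and 8.59% of all genes. The rule used these contrasts, so nothing is read from the counts. Without the arrays numbered 1 the fit called 50 and 50. Centring each array on its own median shifted the median response of all genes from -0.02 to -0.45 in L428 and from -0.03 to -0.51 in L1236. Under that centring the calls over all genes split into 858 higher and 11984 lower in L428, against 656 and 264 as deposited. In L1236 the split was 1205 higher and 12893 lower, against 1699 and 1256. Quantile normalization gave 768 higher and 1824 lower in L428, and 1875 and 4671 in L1236. The smallest rise of any of the 50 genes under the centring was 2.43 in L428 and 2.60 in L1236. The rule itself forces a rise in every one of these genes, so nothing is read from this. Under the centring 41 of the 50 still met the rule. In what follows a rise is the treated mean minus the untreated mean on the log2 scale.

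RefSeq promoter windows of GRCh38.p14, from 250 bases before to 50 bases after the annotated start, were found for 41 of the 50 genes. The 200 bases before the start are printed for 4 of the genes shown array by array below, because they span the range of CpG content in the group. They read 5′ to 3′ on the strand of the gene, with each CpG in capitals. DAZL lies on the minus strand at chr3:16605424-16605623, MAEL on the plus strand at chr1:166975382-166975581, TKTL1 on the plus strand at chrX:154295595-154295794 and CMPK2 on the minus strand at chr2:6866636-6866835.
DAZL: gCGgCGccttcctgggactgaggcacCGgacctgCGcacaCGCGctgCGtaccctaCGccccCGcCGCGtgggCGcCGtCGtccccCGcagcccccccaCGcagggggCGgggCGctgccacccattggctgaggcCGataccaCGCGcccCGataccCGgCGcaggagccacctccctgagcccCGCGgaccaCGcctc
MAEL: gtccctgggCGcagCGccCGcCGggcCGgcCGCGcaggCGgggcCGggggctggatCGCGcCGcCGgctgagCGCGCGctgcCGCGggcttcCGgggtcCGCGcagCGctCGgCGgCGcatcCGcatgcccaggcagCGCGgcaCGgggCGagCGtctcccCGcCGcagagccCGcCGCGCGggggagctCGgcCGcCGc
TKTL1: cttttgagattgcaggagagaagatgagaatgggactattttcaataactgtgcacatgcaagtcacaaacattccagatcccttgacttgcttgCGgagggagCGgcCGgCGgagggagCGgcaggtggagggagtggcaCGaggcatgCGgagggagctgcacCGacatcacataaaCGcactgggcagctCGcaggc
CMPK2: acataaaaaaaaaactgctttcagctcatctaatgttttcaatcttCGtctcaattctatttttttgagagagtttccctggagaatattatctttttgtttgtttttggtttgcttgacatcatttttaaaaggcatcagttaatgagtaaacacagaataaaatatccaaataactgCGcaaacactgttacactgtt
The printed stretch holds 27 CpGs in DAZL, 40 in MAEL, 10 in TKTL1 and 2 in CMPK2. MAEL is thus dense in CpG along its whole stretch. In TKTL1 the CpGs stand in the part nearer the start, and CMPK2 has almost none.

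The genes shown array by array were ordered by the lower of their treated means. Signals of different probes are not on a common scale, so this order is not one of abundance. The germ-line genes TKTL1 and DAZL came first, with CAPG of another class at rank 3. TKTL1 encodes a relative of transketolase, the pentose phosphate enzyme, and is normally found in testis. Its signal was 2.79, 2.64 and 2.45 in untreated L428 and 9.65, 12.33 and 12.17 after treatment. In L1236 it was 2.79, 2.80 and 2.58 without and 12.46, 12.89 and 12.92 with the drug. The groups did not overlap in either line, and the treated L428 array numbered 1 was the lowest of the treated arrays. The mean rise in TKTL1 was 8.76 ± 0.60 log2 units (SE, n = 3 arrays a group) in L428 and 10.04 ± 0.60 in L1236. Here and below the SE comes from the limma fit, which takes 1 spread per gene over all 4 groups. It is therefore not the spread of each line, and the SD of the treated TKTL1 arrays was 1.51 in L428 and 0.26 in L1236. A second TKTL1 probe set went from 2.45 to 10.1 in L428 and from 2.70 to 11.7 in L1236.

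DAZL, an RNA-binding protein that germ cells need for their development, read 2.85, 2.95 and 2.86 in untreated L428 and 8.64, 11.74 and 11.54 in treated L428. The L1236 values were 2.92, 2.92 and 2.86 without the drug and 12.34, 12.42 and 12.48 with it. Its 3 treated L1236 arrays were close together, while replicate 1 of treated L428 was well below the other treated L428 arrays and far above all untreated ones. The rise was 7.76 ± 0.67 in L428 and 9.51 ± 0.67 in L1236.

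HORMAD1, MAEL and GPAT2 were the next germ-line genes, at ranks 4, 5 and 9 of the order. All 3 are known from meiosis or the piRNA pathway, the small-RNA system that keeps transposons silent in germ cells. HORMAD1, a protein of the meiotic chromosome axis, read 2.23, 2.27 and 2.44 in untreated and 7.33, 9.02 and 8.83 in treated L428. In L1236 the HORMAD1 values were 2.20, 2.24 and 2.32 untreated and 10.56, 10.16 and 9.99 treated. No treated array came near the untreated ones, and in L1236 it was replicate 1 that was highest. MAEL, which helps to silence transposons, went from 2.15, 2.17 and 2.28 to 6.69, 9.07 and 9.07 in L428. In L1236 MAEL went from 2.27, 2.29 and 2.31 to 9.22, 10.05 and 9.74. GPAT2, a glycerol phosphate acyltransferase found mainly in testis, went from 2.64, 2.65 and 3.38 to 7.24, 8.31 and 8.23 in L428 and from 2.62, 2.62 and 3.08 to 8.76, 9.04 and 9.17 in L1236. For both genes all treated arrays were above all untreated ones, with the lowest treated value on replicate 1 of each line.

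The other 15 germ-line genes act at several steps of germ-cell life. DMRTB1 and RHOXF1 encode transcription factors of spermatogonia and reproductive tissue, TAF7L is a testis form of a TFIID subunit, and CTCFL is the testis relative of the insulator protein CTCF. EZHIP inhibits Polycomb repressive complex 2 and is found in gonads. TEX11 acts in meiotic recombination, FAM9B is related to a synaptonemal complex protein, and RBMXL2 is a splicing regulator of meiotic cells. PRSS21, DPEP3 and ART3 are enzymes of germ cells or sperm surfaces. PAGE1, FMR1NB and IL13RA2 are known as cancer-testis antigens, the last being a decoy receptor for interleukin 13, and TSPYL6 is a TSPY-like gene. Over all 20 germ-line genes the rise ran from 3.25 to 8.76 in L428 with a median of 4.42, and from 3.27 to 10.04 in L1236 with a median of 5.79. Their median signal on the treated arrays was 5.77, 8.25 and 8.28 in L428 and 8.58, 8.57 and 8.60 in L1236.

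Second probe sets were measured for some of these genes. Both further TEX11 probe sets were higher after treatment, by at least 4.27 in L428 and by at least 5.95 in L1236. That of TAF7L was higher by 4.76 and 7.51. The second probe set of FAM9B stayed at 2.28 to 2.53 and that of RBMXL2 at 1.59 to 1.61 in all 4 groups. Across the whole group, 34 genes had 1 probe set and 16 had others. Of those 25 other probe sets, 12 were higher by at least 1 in both lines, in 9 genes, and 10 were below 4 in every group.

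Most other genes of germ cells were not called. Of 54 measured genes of meiosis and the piRNA pathway, 41 were below 4 in both untreated groups and 5 are among the 50: DAZL, GPAT2, HORMAD1, MAEL and TEX11. The limma fit called 11 of the 54 higher and 0 lower in L428 (1 lower before adjustment, at p under 0.05). In L1236 it called 17 higher and 1 lower. Their median response was near 0 in both lines, at -0.0023 in L428 and 0.064 in L1236. Of 66 measured genes of spermatogenesis and sperm structure, TAF7L and TKTL1 are among the 50, and 6 were called higher in L428 and 11 in L1236. The limma fit called 0 of them lower in either line, against 2 in L428 and 0 in L1236 at an unadjusted p under 0.05. Of 43 listed cancer-testis antigens outside the 3 excluded families, CTCFL, IL13RA2 and PAGE1 are among the 50. Of the 43, 9 were called higher in L428 and 14 in L1236. The list is not complete, since it lacks FMR1NB. In that list limma called 0 lower in L428, also at an unadjusted p under 0.05, and 2 in L1236. Without the arrays numbered 1 the counts called higher in L428 and L1236 were 17 and 20 for meiosis, 12 and 15 for spermatogenesis and 19 and 19 for the antigens. In the same fit 14.4% and 16.7% of all genes were called higher, and the spermatogenesis counts lie near that background. With all 12 arrays the shares of all genes were 3.32% and 8.59%. Centring on the median left the counts called higher in L1236 at 17, 11 and 13, but called 25, 44 and 18 of the same lists lower there, so the counts of falls depend on the scaling.

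Immune genes formed a smaller class of 7. CMPK2, a mitochondrial nucleotide kinase induced by interferon, is the one of them named first by the rule. Its signal was 3.5, 3.79 and 3.92 in untreated L428 and 11.26, 12.46 and 12.21 after treatment. In L1236 it was 2.85, 2.84 and 2.85 untreated and 6.14, 8.85 and 8.84 treated. The treated arrays of both lines were above the untreated ones, and each treated L428 array was above each treated L1236 array. PTGS2, the inducible cyclooxygenase that makes prostaglandins, read 2.66, 2.73 and 2.70 in untreated and 3.55, 9.69 and 9.64 in treated L428. Its L1236 values were 2.67, 2.67 and 2.68 untreated and 7.41, 11.42 and 11.66 treated. On replicate 1 of treated L428 PTGS2 was barely above the untreated arrays, and on the other treated arrays of that line it was far above them.

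CCL4, a chemokine that attracts T cells and monocytes, was singled out after its values were seen because its standard error was the largest of the 50. It read 1.99, 1.96 and 1.99 in untreated and 2.44, 8.12 and 8.30 in treated L428. In L1236 CCL4 read 2.38, 1.98 and 2.29 untreated and 2.55, 9.59 and 9.47 treated. On both treated arrays numbered 1 it stayed at the level of untreated cells or just above. CCL22, a chemokine of Hodgkin and Reed-Sternberg cells, went from 3.10 to 6.86 in L428 and from 3.61 to 10.07 in L1236 as group means. The list of 27 measured Hodgkin markers holds CCL22 as its one gene among the 50, and CCL22 was the one gene of the list below 4 in both untreated groups. Of the 27, 3 were called higher in L428 and 15 in L1236, beside 3.32% and 8.59% of all genes. Without the arrays numbered 1 these counts were 13 and 18, beside 14.4% and 16.7% of all genes. LGALS3BP, a secreted galectin-binding glycoprotein induced by interferon, went from 2.09 to 9.94 in L428 and from 2.14 to 7.18 in L1236. THEMIS2 is a signalling scaffold of B cells and macrophages, and both of its probe sets were higher after treatment in both lines.

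The interferon-stimulated genes outside the OAS and IFI names were mostly measured above the floor before treatment, with 7 of 79 below 4 in both untreated groups. CMPK2 and LGALS3BP are the 2 among the 50. The limma fit called 64 of the 79 higher in L428 and 35 in L1236, beside 3.32% and 8.59% of all genes. The median response of the 79 was 2.54 and 1.00. The fit called 0 of them lower in L428, also at an unadjusted p under 0.05, and 1 lower in L1236. Without the arrays numbered 1, 76 and 55 were called higher, beside 14.4% and 16.7% of all genes. RSAD2, the interferon-induced gene next to CMPK2 on its chromosome, went from 3.15 to 11.4 in L428 and from 4.68 to 7.36 in L1236.

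TYROBP encodes an adaptor that carries signals from receptors of natural killer and myeloid cells. It read 3.02, 2.37 and 2.99 in untreated and 6.52, 7.09 and 7.0 in treated L428. In L1236 it read 3.40, 3.20 and 3.46 untreated and 9.61, 9.48 and 9.10 treated. The treated L1236 arrays were all above the treated L428 arrays. Of 7 myeloid markers, TYROBP among them, 1 was at least 6 in each treated group, and it was TYROBP itself. The group means of CD14, CD163, LYZ and MPO all lay between 2.26 and 2.80, while ITGAM went from 3.97 to 5.60 in L1236 and CSF1R from 3.81 to 4.73 in L428. The summed level of the 7 markers ran from 20.0 to 20.8 in untreated and from 24.3 to 26.3 in treated L428, and from 21.3 to 21.5 and from 28.1 to 31 in L1236. Of 7 markers of T and natural killer cells, CD3E, CD3G and GNLY had group means of 1.74 to 2.5. In L428, NKG7 went from 3.12 to 5.07 and CD2 from 2.75 to 4.46, and in L1236 CD3D went from 4.13 to 6.56 and LCK from 2.27 to 3.97. The summed level of these 7 ran from 18.0 to 19.8 in untreated and from 21.2 to 23.9 in treated L428, and from 17.7 to 18.4 and from 22.6 to 25.1 in L1236. The part of these markers in the TYROBP result was not tested. In the list of 34 myeloid genes, 2 were called higher in L428 and 4 in L1236, beside 3.32% and 8.59% of all genes. These counts were 5 and 6 without the arrays numbered 1, beside 14.4% and 16.7% of all genes. The counts lie near those shares, and nothing is read from them.

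Of the 11 membrane, metabolic and cytoskeletal genes, the rule put CAPG, PRDX2, CD9 and KLHL13 first. CAPG caps actin filaments. It read 4.18, 4.16 and 3.55 in untreated and 7.71, 9.06 and 9.09 in treated L428, and its L1236 values were 3.55, 2.68 and 2.36 untreated and 7.91, 8.67 and 8.69 treated. CD9, a tetraspanin of the cell surface, read 3.82, 3.21 and 3.81 untreated and 6.95, 8.84 and 8.26 treated in L428, against 3.82, 3.88 and 3.85 untreated and 8.47, 8.79 and 8.95 treated in L1236. Both genes had untreated means just under the threshold in at least 1 line, and their groups did not overlap. The other CD9 probe sets stayed at 1.93 to 2.43 in all 4 groups, so the CD9 rise rests on 1 probe set. KLHL13, an X-linked adaptor of a cullin ubiquitin ligase, read 2.80, 2.71 and 2.78 in untreated and 5.28, 8.87 and 8.88 in treated L428. In L1236 it read 2.91, 2.89 and 2.85 untreated and 10.52, 11.25 and 11.02 treated. All treated L1236 arrays of KLHL13 were above all treated L428 arrays.

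PRDX2 encodes a peroxiredoxin that reduces hydrogen peroxide and is abundant in many normal cells. Through the probe set chosen by the rule it read 2.88, 3.02 and 2.89 in untreated and 7.97, 8.21 and 8.05 in treated L428, against 2.91, 2.89 and 2.91 untreated and 11.26, 10.80 and 10.85 treated in L1236. The replicates were tight, and here replicate 1 did not stand apart. The other 3 PRDX2 probe sets were not higher by 1 in either line. One of these read 6.41 and 5.81 in L428 and 5.46 and 5.89 in L1236, without and with the drug, and another stayed between 2.52 and 2.78. The rise of PRDX2 therefore rests on 1 of its 4 probe sets.

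S100P, a calcium-binding protein of epithelia, read 3.10, 3.66 and 4.01 in untreated and 6.05, 6.46 and 6.85 in treated L428. In L1236 S100P read 2.84, 2.84 and 2.85 untreated and 7.87, 8.32 and 8.45 treated. The treated L1236 arrays were all above the treated L428 arrays, and the untreated L1236 arrays were below the untreated L428 arrays. Epithelial markers moved beside it. EPCAM went from 2.83 to 8.20 and KRT18 from 2.35 to 7.11 in L1236, while EPCAM was 2.85 and 2.83 in L428. In L1236, 1 of 5 epithelial markers was at least 6 without the drug and 4 of 5 with it, and the summed level ran from 21.7 to 22.0 and from 35.8 to 36.9. In L428 it was 1 of 5 and then 2 of 5, with sums of 17.4 to 19.9 and 22.4 to 24.7. The part of these markers in the S100P result was not tested. Of 67 measured epithelial genes, S100P alone is among the 50. Of the 67, 2 were called higher in L428 and 17 in L1236, beside 3.32% and 8.59% of all genes. With the arrays numbered 1 left out, 9 and 19 were called higher, beside 14.4% and 16.7% of all genes. The L428 counts lie near those shares.

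The rest of this class act in several compartments. UPP1 is a uridine phosphorylase, TSPO a protein of the outer mitochondrial membrane, LAPTM4B a lysosomal membrane protein, SEPTIN10 a septin, LARP6 an RNA-binding protein that binds collagen transcripts and CPXM1 a secreted carboxypeptidase-like protein. The 11 rises ran from 2.87 to 6.67 in L428 and from 3.61 to 8.07 in L1236. The 3 further LAPTM4B probe sets read 2.49 to 2.71 without the drug, and with it 6.39 to 7.40 in L428 and 3.56 to 4.62 in L1236. LARP6 and SEPTIN10 had other probe sets that were not higher by 1 in both lines.

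SIX3, a homeobox factor of the eye and forebrain, is the first of the 4 genes known from the nervous system, sense organs or kidney. It read 2.70, 2.58 and 2.45 in untreated and 5.35, 8.84 and 8.90 in treated L428, and 2.45, 2.45 and 2.46 untreated and 8.42, 8.53 and 7.86 treated in L1236. Replicate 1 of treated L428 was again far below the other treated arrays, yet above all untreated ones. KCNV2 is a potassium channel subunit of photoreceptors, CLDN14 a tight-junction claudin of the inner ear and kidney, and BEX2 an X-linked gene of brain. BEX2 was the gene of the 50 whose treated and untreated L428 arrays overlapped, with 3.42, 3.68 and 3.37 untreated and 3.57, 8.09 and 7.92 treated. Of 53 measured neuronal and synaptic genes, BEX2 alone is among the 50.

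H2BC4 and H2BC11 encode near-identical H2B proteins, and probes of this family can read more than 1 gene, so which histone gene these values belong to is uncertain. H2BC11 went from 3.44 to 7.78 in L428 and from 3.99 to 7.07 in L1236, and H2BC4 from 3.26 to 6.53 and from 3.84 to 8.12. The 6 genes without an assigned role are OVAAL, LINC01419, KLHDC7B, DCAF4L1, CCDC85A and MLF1. Their median signal on the treated arrays was 4.78, 9.10 and 9.13 in L428 and 6.70, 7.93 and 7.87 in L1236. CCL4 also has near-identical relatives, and the same limit holds for its probe set.

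The lists of stromal and endothelial, muscle, liver, placental, T-cell and B-cell genes hold none of the 50. The 50 are 0.253% of all genes, so lists of this size would seldom hold one, and nothing is read from these zeros. In L428 and L1236, limma called 3 and 8 of 55 stromal, matrix and endothelial genes higher, 1 and 6 of 38 muscle and heart genes, and 1 and 6 of 33 placental genes. The counts were 2 and 10 of 37 T-cell and natural killer genes, 3 and 6 of 32 B-cell genes, and 0 and 5 of 44 liver genes. Of all genes 3.32% and 8.59% were called higher. Without the arrays numbered 1 the counts became 8 and 13 for stroma, 1 and 7 for muscle, 2 and 5 for placenta, 5 and 10 for T cells, 6 and 8 for B cells and 5 and 8 for liver, beside 14.4% and 16.7% of all genes. The lists of homeobox factors, apoptosis genes, interferons and their receptors and housekeeping genes likewise hold none. The homeobox list lacks SIX3, so it does not show that the 50 hold no homeobox factor.

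The thresholds cut through a continuum. Just inside the untreated threshold were H2BC11 with a higher untreated mean of 3.99, CAPG with 3.96 and CCDC85A with 3.89. Just outside it were HSPA2 and TRIM22 with 4.09 each and SYCP3 with 4.14. At the treated threshold, TSPO was inside with a lower treated mean of 6.03, PRSS21 with 6.08 and RBMXL2 with 6.12. LOC101928894 was outside with 5.99, ACSBG1 with 5.98 and GTF2IRD1 with 5.96.

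The rule bounded the levels in both lines but fixed no sign for the difference between their responses. This difference was tested as the L1236 response minus the L428 response in the fit of all 19775 genes. PRDX2, S100P and TYROBP differed, each with the larger rise in L1236. PRDX2 rose by 2.92 ± 0.16 log2 units more in L1236 (SE, n = 3 arrays a group, limma adjusted p = 1.8e-05). For S100P the difference was 2.51 ± 0.37 (adjusted p = 0.00796), and for TYROBP it was 1.97 ± 0.31 (adjusted p = 0.00975). All 3 were called in L1236's favour, beside 2.66% of all genes, and 0 of the 50 were called in favour of L428, beside 1.96%. At an unadjusted p under 0.05 the limma counts were 10 larger in L1236 and 6 larger in L428. Over all genes 527 of 914 calls were larger in L1236, and with each array centred on its median 458 of 967 were. The PRDX2 difference was 0.073 (adjusted p = 0.949) when the median over its probe sets was taken.

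Of the 50 genes, 39 had the larger fitted rise in L1236, and the median difference was 0.77 beside -0.0095 over all genes. For the germ-line class it was 17 of 20, with a median of 1.25, and without the arrays numbered 1 it was 14 of 20 with a median of 0.51. Treated L428 replicate 1 weighs heavily here. Without it 27 of 50 had the larger rise in L1236 and the median was 0.095. The fit then called 18 of the 50, 10 of them larger in L1236 and 8 larger in L428. Beside this, 9.88% of all genes were called in either direction. Without the 4 arrays numbered 1, 29 of 50 had the larger rise in L1236, the median was 0.30, and the fit called 31. Of these, 18 were larger in L1236, beside 11.4% of all genes, and 13 were larger in L428, beside 12.4%. The largest in L1236 were then CCL22 with 3.39 ± 0.11, PRDX2 with 2.75 ± 0.10, TAF7L with 2.73 ± 0.11, S100P with 2.72 ± 0.24 and DMRTB1 with 2.15 ± 0.36. In the other direction the difference was -3.72 ± 0.19 for LGALS3BP, -3.51 ± 0.20 for LAPTM4B, -2.87 ± 0.25 for KLHDC7B, -2.47 ± 0.13 for CMPK2 and -2.25 ± 0.11 for IL13RA2. Each of these 10 had the same direction with all 12 arrays. Of the germ-line genes, 9 were then called larger in L1236 and 3 larger in L428.

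**Figure D3:**
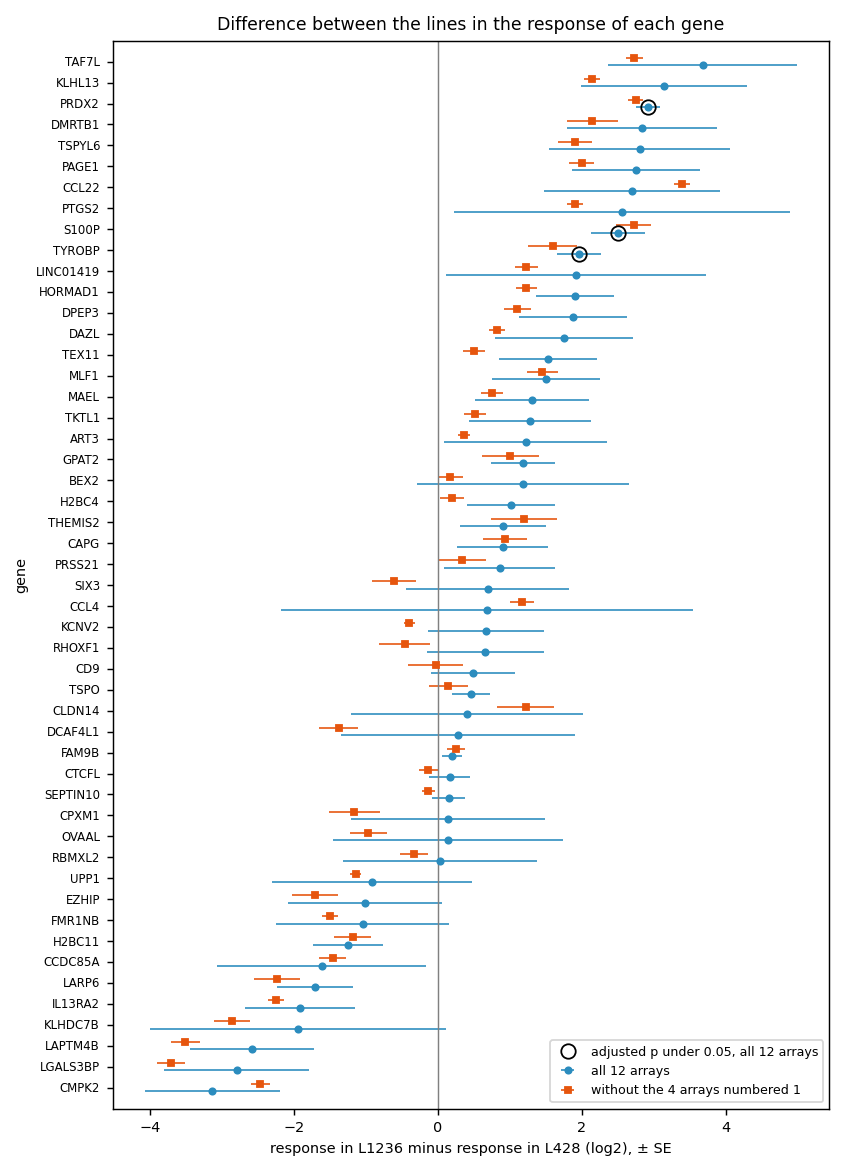
L1236 response minus L428 response (log2, horizontal axis, bars are SE) for each of the 50 genes, from all 12 arrays (circles) and without the 4 arrays numbered 1 (squares). Black rings mark PRDX2, S100P and TYROBP, called with all 12 arrays at 2.92, 2.51 and 1.97, and the bars of most genes are shorter without the arrays numbered 1.

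For many genes the standard errors with all 12 arrays were too large to separate the lines. For PTGS2 the difference was 2.56 ± 2.34, for CCL4 0.68 ± 2.87 and for LINC01419 1.92 ± 1.81, all from 12 arrays. Without the arrays numbered 1 these differences were 1.91 ± 0.11, 1.17 ± 0.17 and 1.23 ± 0.16, each called larger in L1236. For others the estimate was close to 0 with a small error, as in FAM9B with 0.19 ± 0.14, SEPTIN10 with 0.15 ± 0.23 and CTCFL with 0.16 ± 0.29. A missed threshold does not show that the lines respond alike.

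The rule made no use of promoter sequence. A window was called CpG-rich when its observed over expected CpG ratio was at least 0.6 and its GC content at least 50%. This held for 20 of the 41 genes with a window, or 48.8%. The share was 64.4% over all 15382 genes with a window, 39.1% over the 5823 genes below 4 in all 4 groups and 86.6% over the 6531 genes at 6 or more in all 4 groups. The median number of CpGs was 16 in the 41 windows, from 2 in CMPK2 to 60 in MAEL, beside 22, 10 and 27 in those 3 sets. The 95% Wilson interval of the 48.8% ran from 34.3% to 63.5%. It took in the share of the silent genes and lay just below that of all genes. Such an interval treats the genes as independent draws, which genes chosen by a rule are not, so it is a description. With a ratio of at least 0.75 and a GC content of at least 55% the share was 24.4%. This was below the 27.03% of the silent genes, the 49.4% of all genes and the 69.3% of the expressed genes. Its interval, from 13.8% to 39.3%, took in the share of the silent genes and lay below that of all genes. With a ratio of at least 0.6 alone the share was 56.1%, with a 95% Wilson interval from 41.04% to 70.1%. The same definition gave 40.86% of the silent genes, 66.5% of all genes and 88.9% of the expressed genes. This interval took in the share of all genes and lay just above that of the silent genes. Under all 3 definitions the share was below those of all genes and of the expressed genes. Its place against the silent genes turned with the definition.

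**Figure D4:**
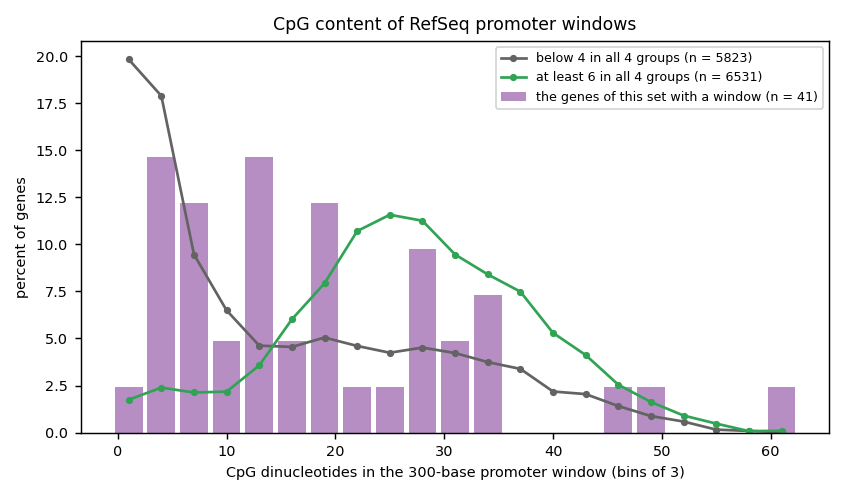
Percent of genes (vertical axis) by number of CpG dinucleotides in the 300-base RefSeq promoter window (horizontal axis, bins of 3). Bars are the 41 genes of the group with a window, and lines are the genes below 4 in all 4 groups (median 10) and at least 6 in all 4 groups (median 27); the bars, with a median of 16, spread across both.

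By class the share varied. Of the membrane, metabolic and cytoskeletal genes 8 of 10 windows were CpG-rich, among them LARP6 with 49 CpGs and PRDX2 with 46. Of the germ-line genes it was 7 of 17, including MAEL, DAZL with 33 CpGs and TKTL1 with 18, while GPAT2 had 3. Of the immune genes it was 2 of 6, and CMPK2, LGALS3BP, CCL22 and TYROBP had 2, 4, 4 and 8 CpGs. CMPK2, with almost no CpG at its start, had rises of 8.24 in L428 and 5.10 in L1236. MAEL, with the most, had rises of 6.07 and 7.38. Whether the rise goes with CpG content was not tested. On the X chromosome lay 9 of the 41 genes, or 22.0%, beside 3.86% of all genes with a window, and 7 of these 9 were germ-line genes: TKTL1, EZHIP, PAGE1, TEX11, FAM9B, TAF7L and RHOXF1.

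A few motifs were searched for on both strands of the windows. The E-box CACGTG stood in 4 of 41, those of DPEP3, EZHIP, BEX2 and PAGE1, or 9.76%, beside 8.90% of all windows. The interferon-stimulated response element, searched as a pair of GAAA cores set 2 bases apart, stood in 2, those of LGALS3BP and H2BC11, or 4.88% beside 2.95%. The E2F-type motif GGCGGGA stood in 2, those of SEPTIN10 and KLHL13, or 4.88% beside 20.8%. The cyclic AMP element TGACGTCA stood in that of MLF1, 2.44% beside 2.67%, and TATAAA stood in 5, or 12.2% beside 8.76%. Over the genes below 4 in all 4 groups the E-box share was 6.15% and that of the interferon element 2.78%. There the E2F-type motif stood in 14.12%, the cyclic AMP element in 1.58% and TATAAA in 13.45%. A match is a description of letters and not a site.

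The nearest measured gene on each side was also read for the 50 genes, which gave 100 neighbours. Of these, 5 were higher by at least 1 in both lines, or 5% beside 2.95% for the neighbours of all genes. They were RSAD2 next to CMPK2, CXCL10 next to ART3, H2BC12 next to H2BC11, PAGE4 next to PAGE1 and BIK next to TSPO. CXCL10, an interferon-induced chemokine, was already at 8.40 in untreated L428 and 11.7 in untreated L1236. The remaining neighbours were not higher by 1 in both lines.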

How the data were processed

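Total RNA of 12 samples of L428 and L1236 was measured on Affymetrix arrays. Each deposited value is the log2 signal of a probe set, made by the authors with RMA according to the submitters' processing notes. The RMA version is not given in the sources used here. A whole-transcript array is named in the labels, but the table carries identifiers of a 3' expression design, and these were used. The table holds 54675 probe sets, of which 41097 had 1 gene symbol, 1801 several and 11777 none in the platform annotation, and 41043 were matched to RefSeq for current names. Values ran from 0.657 to 16.6. No detection calls were used, and the number of arrays limits the precision. From the files, 4 group means were fitted with limma 3.58.1 in R 4.3.3, with two-sided tests, Benjamini-Hochberg adjustment over 19775 genes and a threshold of 0.05. The fit was tested on simulated data. The genes and lists were chosen with earlier results of these data known. Array values are given for the 12 genes with the highest lower treated mean, and further genes were singled out after their values were seen. Alternatives covered scaling, choice of probe set, array weights, thresholds, a replicate block and leaving out arrays. Promoter windows came from RefSeq (GRCh38.p14).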

Additional observations from a re-analysis of the deposited data

Results flagged for a closer look

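Of the 50 genes, 3 stood out because their response differed between the lines in the test of the difference itself. The L1236 response exceeded the L428 response by 2.92 for PRDX2, by 2.51 for S100P and by 1.97 for TYROBP on the log2 scale, in the limma fit with adjusted p-values of 1.8e-05, 0.00796 and 0.00975. In each, the 3 treated L1236 arrays were above the 3 treated L428 arrays. That separation is not particular to them. It also held for TAF7L and KLHL13 among others, with larger differences of 3.68 ± 1.31 and 3.14 ± 1.16 that were not called. CMPK2 was separated in the other direction, at -3.14 ± 0.93, and was not called either. The PRDX2 difference belongs to 1 of 4 probe sets, and another of them was above 4 in both untreated groups.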

How the results depend on the processing

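Over 21 alternatives S100P kept its call with differences of 2.30 to 2.84 (adjusted p at most 0.0272), and TYROBP with 1.60 to 2.18 (adjusted p at most 0.0313). PRDX2 kept its call in 20 and lost it with the median over probe sets, at 0.073, where its flat probe sets set the value. Leaving out 1 array at a time gave 3 to 18 of the 50 genes called, 442 to 2112 calls over all genes and 41 to 63 genes meeting the rule. The high ends came without treated L428 replicate 1 (18 and 1954 calls) and without treated L1236 replicate 1 (5 and 2112), and leaving out any of the 8 arrays numbered 2 or 3 gave 442 to 579 calls over all genes. Without the arrays numbered 1, 31 of the 50 and 4697 of all genes were called. Array weights, whose estimate did not converge fully, gave 19 and 5718. Dropping genes below 4 in every group gave 5 of the 50, beside 9.24% of the genes kept. Asking every array to pass both thresholds left 15 genes, against 41 to 57 over the scalings and untreated thresholds of 3.5 and 4.5, and 39 and 68 at treated thresholds of 6.5 and 5.5. The stricter CpG definition gave 24.4%, against 27.03% of the silent genes, 49.4% of all and 69.3% of the expressed genes. The ratio of at least 0.6 alone gave 56.1%, against 40.86%, 66.5% and 88.9% of the same sets. The cause of these shifts was not tested. With the replicate block, for numbers taken from the endings of the sample titles, 3 of the 50 and 781 of all genes were called. Deviations of equally numbered arrays correlated over 0.1 for every number in 3 of the 6 pairs of groups (0.107 to 0.40: untreated and treated L428, and the lines at the same treatment), but not in the other 3 (-0.122 to 0.235). The line difference uses all 4 groups, so the numbers were not taken as pairs for it. Arrays give no depth, and levels near the floor have no reliable order.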
